A study of Oryctolagus cuniculus with 16 samples.

Results

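The tumour necrosis factor (TNF) superfamily comprises the ligand TNF and its relatives, the receptors that bind them and the TRAF adaptor proteins that carry the receptors' signal. Members were taken by gene symbol: TNF, LTA, LTB, every TNFSF ligand and TNFRSF receptor symbol, FAS, FASLG, CD27, CD40, CD40LG, CD70, LTBR and the numbered TRAF genes, without TNFSF11. This rule found 28 of the 29587 genes in the rabbit gene table, and no measured value entered it. They were 11 ligands, 12 receptors and 5 adaptors. A filter on low counts kept 17 of them for testing, namely 5 ligands, 7 receptors and all 5 adaptors. Each of these 17 reached the minimum in at least 4 libraries outside the copper group, so that none passed through the copper libraries alone. The other 11 fell below the filter and are given as read counts, with a fit without the filter where it made a call. FAS, CD40, LTA and TRAF2, which the rule also covers, were not analysed here.

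Total RNA was sequenced from the tibiae of 4 rabbits, 10 days after surgery, to compare early bone responses to implants of different metal and surface. Every rabbit had 4 drilled sites, and each site was either labelled Sham or had held 1 of 3 implants. Turned Ti was machined from commercially pure titanium, SLA Ti was titanium with a sandblasted, large-grit, acid-etched surface, and Turned Cu was machined from copper. Each of the 4 groups therefore held 4 libraries, 1 from each rabbit, and the replicate number is the rabbit. Strain, sex and age are not given in the sources used here, the labels name no genetic change, and the RNA was a mixture scraped from the wall of the hole.

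In human and mouse, most TNF family ligands are membrane proteins that can be cut free by proteases, and they act as trimers. Binding gathers receptors together, and TRAF adaptors or death-domain proteins bound to the receptor tails then switch on NF-kappa-B, stress kinases or cell death. In bone, TNF is made largely by macrophages and other leukocytes, and it is known to hold back osteoblasts and to favour osteoclasts together with RANKL (TNFSF11).

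Library totals ran from 8539984 to 20406474 read counts, of which 965804 to 3960681 belonged to protein-coding genes of the nuclear genome. Sham replicate 2, Turned Ti replicate 4 and SLA Ti replicate 4 were high in ribosomal RNA, at 65.3%, 49.6% and 44.8% of counts. Turned Cu replicates 2 and 4, both from the proximal tibia, had 93.9% and 92.6% of their remaining counts on mitochondrial genes, against 81.3% and 74.5% in the distal Turned Cu replicates 1 and 3. SLA Ti replicate 3 stood near the copper libraries in its neutrophil markers, with a summed level of 2255 CPM (the count rate relative to the scaled library size), against 995 to 2131 in Turned Cu and 78.9 to 651 in the other SLA Ti libraries. Bone markers had reads in every library: 7 osteoblast genes summed to 352 to 1630 CPM in Sham, 644 to 1889 CPM in Turned Ti, 23.9 to 852 CPM in SLA Ti and 148 to 389 CPM in Turned Cu. The scaling factors (TMM) ran from 0.251 to 2.91, lowest in the proximal copper libraries (0.251 and 0.291) and highest in Turned Ti replicate 1.

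Beside copper, TNFRSF1A, TNFRSF1B, LTBR, TNFRSF21 and TNF were higher than in Sham and Turned Ti, and the receptor TNFRSF19 was lower. Against SLA Ti the same 6 genes passed, but the calls for TNF, TNFRSF1B and TNFRSF19 were lost in 18, 4 and 3 of 23 alternative settings. Against Sham, 9 of the 17 tested members passed the test (edgeR's quasi-likelihood test, Benjamini-Hochberg adjusted p under 0.05), 8 of them higher and 1 lower. Of all 11617 genes tested, 42.8% passed in that comparison, 23.2% higher and 19.6% lower, so that much of the transcriptome differed and 8 of 17 higher members stood against a background of 23.2%. The median log2 fold change was 1.31 over the 17 members and -0.06 over all genes. Against Turned Ti, 7 members rose and 1 fell (40.7% of all genes passed, 21.1% higher and 19.6% lower), and the medians were 1.36 for the members and -0.11 for all genes. Against SLA Ti, 7 rose and 1 fell as well (31% of all genes passed, 15.3% higher and 15.7% lower), with medians of 0.99 and -0.02. Groups did not overlap in 10 of 17 members against Sham (40.2% of all genes), 9 higher (21.8%) and 1 lower (18.4%). They did not overlap in 8 members against Turned Ti, all higher in copper (19% of all genes, 35.3% in either direction), and in 7 higher and 1 lower against SLA Ti (13.4% and 14.6%, 28% in either direction). These comparisons share the same 4 copper libraries and are not independent of each other. In bulk tissue, fewer cells of a type and less RNA per cell cannot be told apart. With the relative log expression scaling, the split against Sham was 7 higher and 2 lower, because TNFSF14 no longer passed and TRAF4 did. With that scaling 20.7% of all genes were higher and 23.4% lower. Against SLA Ti the count dropped to 5 when Turned Cu replicate 1, SLA Ti replicate 2 or SLA Ti replicate 4 was left out, and likewise without Turned Cu replicates 2 and 4 or without the 3 libraries high in ribosomal RNA. The share of all genes that were higher fell too, from 15.3% to 8.28% without Turned Cu replicate 1, 7.68% without SLA Ti replicate 2 and 8.5% without SLA Ti replicate 4. It was 12.1% without Turned Cu replicates 2 and 4 and 8.09% without the 3 libraries high in ribosomal RNA.

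These counts depended on how libraries were scaled. When each library was scaled by its counts on nuclear protein-coding genes, the median of all genes in copper moved to -0.74 against Sham, -0.75 against Turned Ti and -0.64 against SLA Ti on the log2 scale. With that scaling 6 members were higher and 4 lower against Sham (14% and 36.4% of all genes, by edgeR), 7 and 4 against Turned Ti (12.7% and 36.6%), and 4 and 3 against SLA Ti (7.1% and 30.4%). TNF, LTB, LTBR, TNFRSF1A, TNFRSF1B and TNFRSF21 kept their calls against Sham and Turned Ti, with log2 fold changes against Sham of 5.73, 2.44, 1.79, 2.13, 4.40 and 2.32. Against SLA Ti LTBR, TNFRSF1A, TNFRSF1B and TNFRSF21 kept theirs, and TNF (1.69, edgeR adjusted p 0.08293), TNFRSF9 and TRAF1 lost them. TNFSF14 and TRAF1 lost the call against Sham, while TNFSF12, TRAF4 and TRAF6 were then called lower. Newly called lower were TNFSF13, TRAF4 and TRAF6 against Turned Ti, and TNFSF12 and TRAF4 against SLA Ti. TNFRSF19 was lower in all 3 comparisons. Statements on overlap between groups refer to TMM-scaled CPM. In counts per nuclear protein-coding count, 6 members lay higher without overlap against Sham (13.9% of all genes), 5 against Turned Ti (11.2%) and 5 against SLA Ti (6.49%). In the deposited TPM, which counts mitochondrial transcripts in each total, only TNF and TNFRSF1B did so against Sham (5.29%) and Turned Ti (2.4%), and no member against SLA Ti (0.448%). In that TPM, TNFRSF19, TNFSF12, TRAF4 and TRAF6 lay lower without overlap in all 3 comparisons. TNFSF13 did so against Turned Ti and TRAF5 against SLA Ti. Per nuclear protein-coding count, TNFRSF19, TRAF4 and TRAF6 lay lower against Sham. TNFSF13, TRAF4 and TRAF6 did so against Turned Ti, and TNFRSF19 and TNFSF13 against SLA Ti. Shares of all genes in the lower direction were not counted on these scales. The members listed as lower here thus have no background to be read against.

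**Figure D1:**
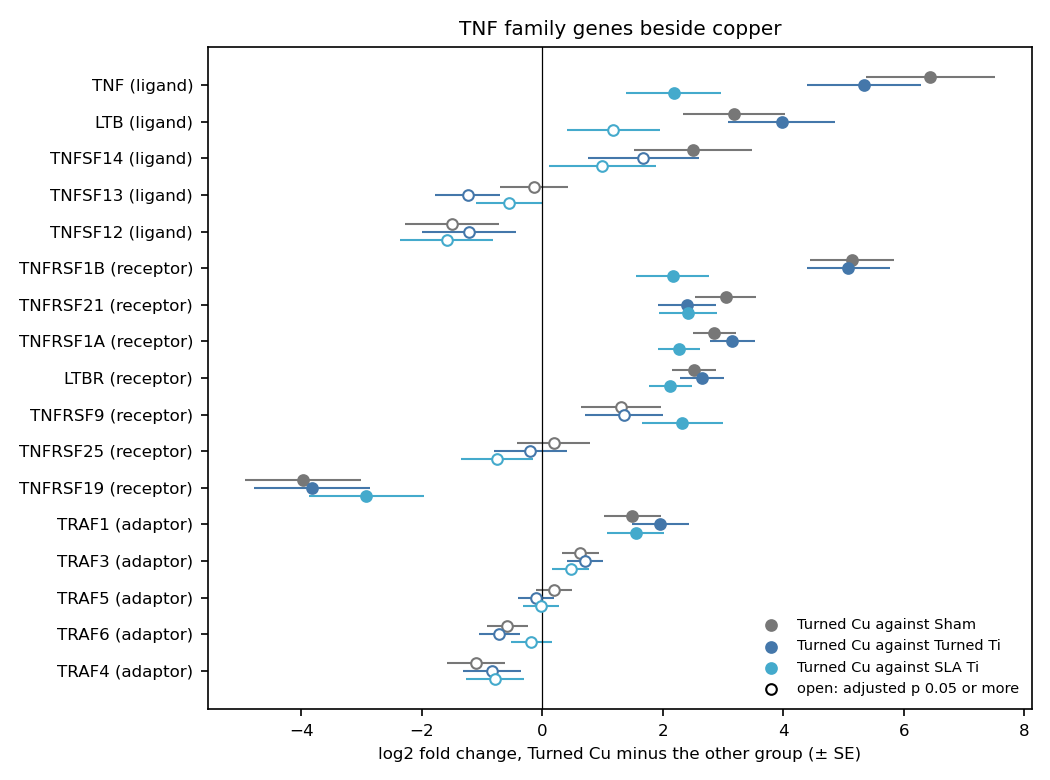
Log2 fold change (± SE) of the 17 tested TNF family genes in Turned Cu against each of the other groups, by role, from edgeR's quasi-likelihood fit to 16 libraries. Filled points passed the adjusted threshold and open points did not; TNF reached 6.44 against Sham and TNFRSF19 lay on the negative side in all 3 comparisons.

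TNF, the founding ligand and a leading signal of acute inflammation, had the highest log2 fold change among the tested members against Sham. In Sham it was at 0, 0.269, 0.0612 and 0.201 CPM in rabbits 1 to 4, and in Turned Ti at 0.0647, 0.591, 0.215 and 0.249 CPM. The 4 copper libraries held 20.5, 7.42, 9.29 and 7.40 CPM, and the SLA Ti libraries 0.230, 0.362, 6.01 and 3.43 CPM. The copper libraries thus lay above every other library, while the SLA Ti libraries split into a low pair (rabbits 1 and 2) and a high pair (rabbits 3 and 4). The log2 fold change was 6.44 ± 1.07 (SE, n = 4 per group) against Sham, with an adjusted p of 0.0001647 by edgeR's test. It was 5.34 ± 0.95 against Turned Ti (adjusted p 0.0003465 by edgeR's test). Both calls held under all 23 alternative settings. Against SLA Ti TNF was higher by 2.18 ± 0.79 (edgeR adjusted p 0.04472), but this call was lost under 18 of the 23 alternatives, with adjusted p between 0.0131 and 0.2095. Leaving out any single library ended it except Turned Ti replicate 2 and SLA Ti replicate 3. The lowest value was 1.51, without Turned Cu replicate 1. In the same copper libraries 6 of 8 neutrophil markers and 4 of 10 monocyte and macrophage markers rose against Sham. None of them fell, and of all genes 23.2% were higher and 19.6% lower. Against SLA Ti 0 of 8 and 3 of 10 rose, and 2 and 3 fell, beside 15.3% of all genes higher and 15.7% lower. The part of these markers in the differences was not tested. The gene lies on chromosome 12 at 20399449 to 20402001, plus strand, in the coordinates of the gene table, with a build not given in the sources used here.

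LTB (lymphotoxin beta), the membrane partner of lymphotoxin alpha in the ligand of LTBR, lies next to TNF on chromosome 12, at 20405445 to 20407151 on the minus strand, with 3.44 kb between the gene models. Its levels in Sham were 1.37, 0.404, 2.02 and 1.25 CPM, and in Turned Ti 0.162, 0.492, 0.108 and 2.65 CPM. SLA Ti held 5.53, 0.625, 9.87 and 5.11 CPM and Turned Cu 17.1, 5.27, 15.7 and 9.47 CPM. Copper did not overlap with Sham or Turned Ti, but it overlapped with SLA Ti, where 3 of 4 libraries exceeded every Sham library. LTB rose by 3.18 ± 0.84 on the log2 scale against Sham (edgeR adjusted p 0.005642) and by 3.98 ± 0.89 against Turned Ti (edgeR adjusted p 0.001871), and both calls held under all 23 alternatives. Without Turned Ti replicate 4 the difference from Turned Ti was 5.50. Against SLA Ti the difference was 1.18 ± 0.77 (edgeR adjusted p 0.2615). In every rabbit the copper site exceeded the SLA Ti site of the same animal.

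TNFSF14 (LIGHT), also a ligand of LTBR, was at 6.46, 6.63, 5.98 and 4.99 CPM in copper and spread widely elsewhere. Sham held 0.536, 3.63, 0.612 and 0.0804 CPM and Turned Ti 0.453, 0.148, 1.25 and 6.05 CPM. Its difference from Sham, 2.50 ± 0.98 (log2, edgeR adjusted p 0.0477), was lost under 17 of 23 alternatives, whose adjusted p ran from 0.001887 to 0.1538. With the rabbit as a block it was 2.49 with an edgeR adjusted p of 0.06661. Against Turned Ti the difference was 1.68 ± 0.92 and did not pass. Without Turned Ti replicate 4, a library high in ribosomal RNA, it was 3.12 and passed with an edgeR adjusted p of 0.0112. Leaving out any single library other than Sham replicate 2, Turned Ti replicate 2 or Turned Ti replicate 4 ended the call against Sham, and the lowest value was 1.83, without Sham replicate 4. The gene model shares 11677 bases with another gene on the same strand that carries no symbol and holds 4810 reads over the 16 libraries, so that reads could be assigned to either. That neighbour did not pass the test in any copper comparison, with log2 fold changes of 1.16, -0.30 and 0.01 against Sham, Turned Ti and SLA Ti.

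The remaining tested ligands did not pass in any comparison with all libraries and TMM scaling over all kept genes. TNFSF12 (TWEAK), a ligand linked to tissue repair, had 0, 0, 2 and 4 reads in the copper libraries against 15, 2, 11 and 19 in Sham, a log2 difference of -1.49 ± 0.78 (edgeR adjusted p 0.1341). Without Turned Cu replicate 4 it passed in all 3 copper comparisons, at -2.79, -2.52 and -2.89 against Sham, Turned Ti and SLA Ti, with edgeR adjusted p of 0.0204, 0.0362 and 0.0258. TNFSF13 (APRIL), a survival factor of plasma cells that is encoded 1.61 kb away on chromosome 19, differed by -0.14 ± 0.57 from Sham. Its difference from Turned Ti was -1.24 ± 0.54 (edgeR adjusted p 0.07514), and this passed without Turned Cu replicate 3 (-1.85) and without Sham replicate 1 (-1.34). Scaled by nuclear protein-coding counts, the difference was -1.96 and passed (edgeR adjusted p 0.007763).

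The 6 untested ligands had 5 to 53 reads each over all 16 libraries. TNFSF18 (GITR ligand), known in human and mouse to costimulate T cells, had the clearest pattern among them. It had 4, 3, 3 and 4 reads in the 4 copper libraries, no read in Sham or Turned Ti, and 1 read in SLA Ti. With TMM scaling and a floor of 3 counts over a group, it was at least 12.2-fold higher in Turned Cu than in Sham. Against Turned Ti it was at least 16.9-fold higher on the same scale. These bounds were 7.54 without Sham replicate 4 and 11.2 without Turned Ti replicate 1. A fit without the filter called TNFSF18 in all 3 copper comparisons, with edgeR adjusted p of 0.006854, 0.00417 and 0.02296, on 14 copper reads in all. TNFSF4 (OX40 ligand) had 4, 3, 8 and 2 reads in copper against 2, 1, 0 and 0 in Sham and 9, 2, 13 and 0 in SLA Ti. The fit without the filter called it higher against Sham (3.21, edgeR adjusted p 0.04241) and not against the other groups. It lies 80.7 kb from TNFSF18 on chromosome 13, and FASLG lies 331 kb beyond. CD40LG, FASLG, TNFSF8 and TNFSF15 had 9, 5, 24 and 17 reads in total.

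**Figure D2:**
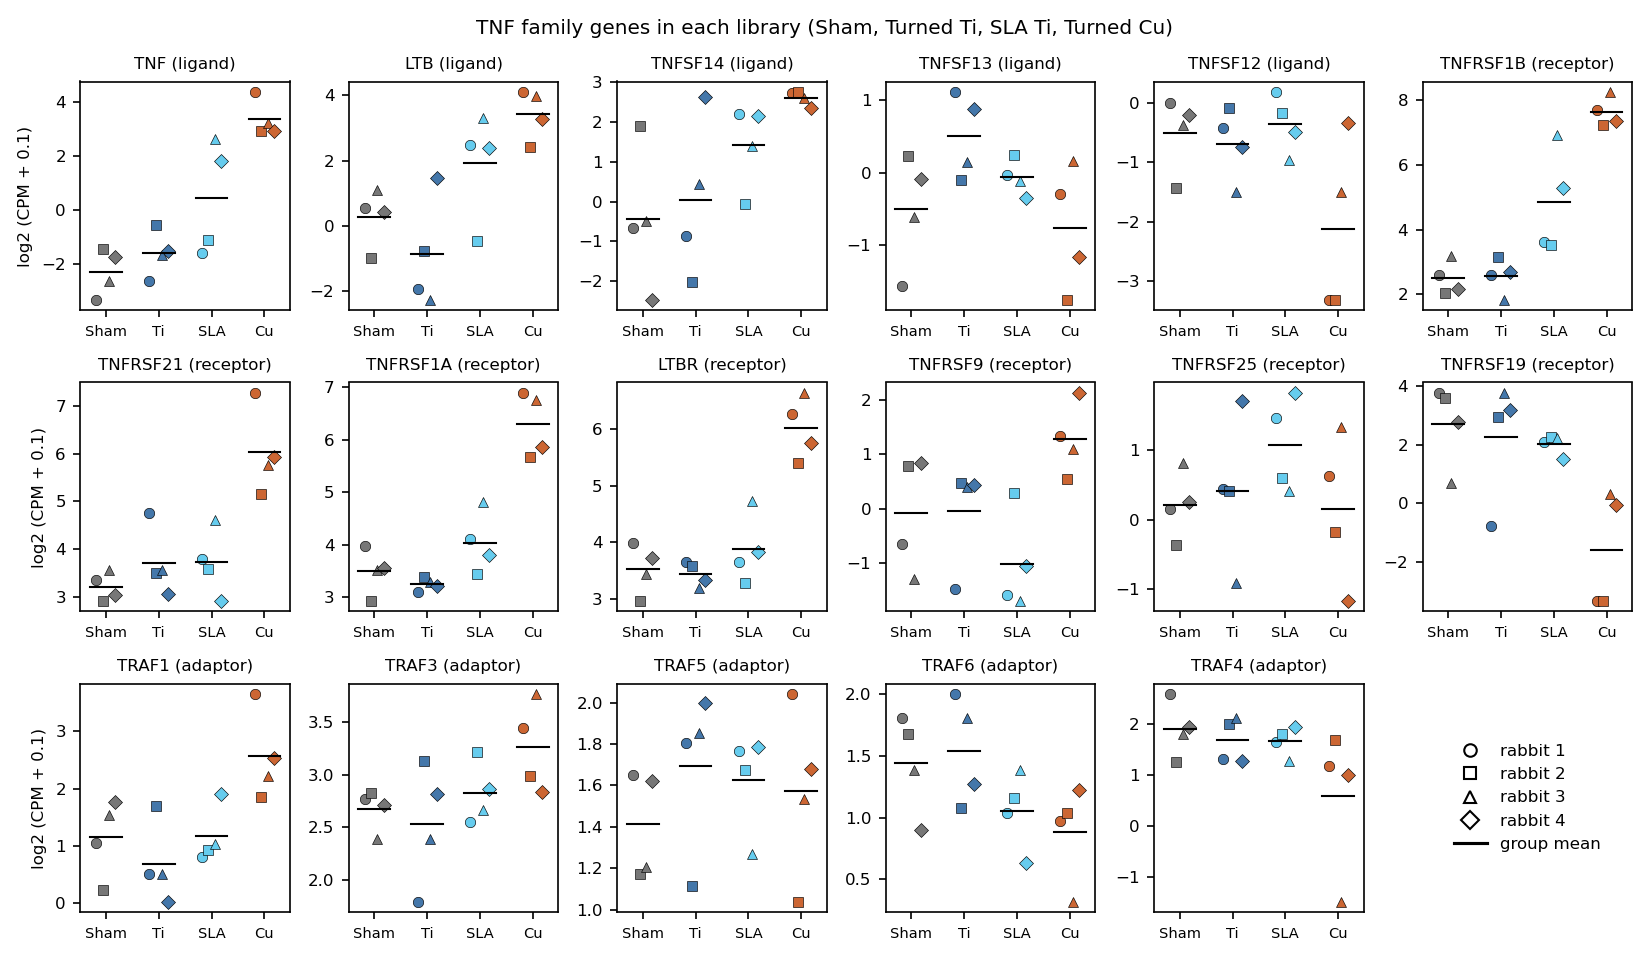
Level of each of the 17 tested members in each library, as log2 (CPM + 0.1), for Sham, Turned Ti (Ti), SLA Ti (SLA) and Turned Cu (Cu); symbols mark the rabbit and bars the group mean of the log values. The 4 copper libraries lay above all others for TNF, LTBR, TNFRSF1A, TNFRSF1B and TNFRSF21, and the SLA Ti library of rabbit 3 stood closest to them for TNF, LTB, LTBR, TNFRSF1A and TNFRSF1B.

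Both receptors for TNF rose beside copper. TNFRSF1A, the death-domain receptor found on most cell types, was at 15.7, 7.53, 11.3 and 11.7 CPM in Sham and 119, 50.9, 108 and 58.2 CPM in Turned Cu. The titanium libraries ran from 8.54 to 10.3 CPM (Turned Ti) and from 10.8 to 28.1 CPM (SLA Ti). No copper library overlapped with any other library. The log2 fold change was 2.86 ± 0.36 against Sham, 3.16 ± 0.37 against Turned Ti and 2.27 ± 0.35 against SLA Ti. The adjusted p from edgeR's test was 2.594e-05, 2.604e-05 and 0.0003585, and all 3 calls held under each of the 23 alternatives.

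TNFRSF1B, the other receptor for TNF, lacks a death domain and is found mainly on leukocytes and endothelium. Its levels were 6.02, 4.04, 8.94 and 4.42 CPM in Sham and 5.95, 8.86, 3.44 and 6.30 CPM in Turned Ti. Turned Cu held 209, 152, 307 and 163 CPM, and SLA Ti 12.2, 11.5, 123 and 39.2 CPM. Copper lay above all other libraries, and each SLA Ti library lay above every Sham and Turned Ti library. The log2 fold change was 5.14 ± 0.70 against Sham (edgeR adjusted p 3.96e-05) and 5.08 ± 0.70 against Turned Ti (edgeR adjusted p 5.503e-05), calls that held under all 23 alternatives. Against SLA Ti it was 2.17 ± 0.61 (edgeR adjusted p 0.01328). This last call was lost in 4 alternatives, at 1.70 without SLA Ti replicate 2, 1.70 without Turned Cu replicate 3, 1.94 without SLA Ti replicate 4 and 1.93 without the 3 libraries high in ribosomal RNA, with adjusted p up to 0.07748 over all alternatives. TNFRSF1B lies on the unplaced scaffold GL018739 at 1901647 to 1931846.

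LTBR, the receptor for LTB and TNFSF14 and an entry to the NFKB2 branch of NF-kappa-B, is encoded 40.4 kb from TNFRSF1A on chromosome 8. In Sham it was at 15.7, 7.67, 10.8 and 13.1 CPM, and in copper at 76.9, 42.0, 99.8 and 53.7 CPM. The titanium groups lay at 8.96 to 12.5 CPM (Turned Ti) and 9.64 to 26.4 CPM (SLA Ti), below every copper library. LTBR rose by 2.52 ± 0.36, 2.65 ± 0.36 and 2.13 ± 0.35 on the log2 scale against Sham, Turned Ti and SLA Ti, with edgeR adjusted p of 5.305e-05, 5.288e-05 and 0.0005345.

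TNFRSF21 (death receptor 6), studied mostly in neurons and lymphocytes, was at 10.1, 7.40, 11.6 and 8.08 CPM in Sham and at 156, 35.3, 54.5 and 61.5 CPM in copper. Turned Ti held 26.9, 11.1, 11.6 and 8.21 CPM and SLA Ti 13.7, 11.8, 24.5 and 7.39 CPM. On this scale copper did not overlap with any group. In TPM the copper libraries held 53.0, 3.95, 23.7 and 8.54, which overlapped with 3.83 to 6.14 in Sham, 3.49 to 38 in Turned Ti and 3.27 to 17.4 in SLA Ti. The log2 fold change was 3.04 ± 0.50, 2.40 ± 0.48 and 2.42 ± 0.49 against Sham, Turned Ti and SLA Ti (edgeR adjusted p 0.000153, 0.0008933 and 0.001766). Of the 3 gene models without a symbol that overlap TNFRSF21 on the opposite strand, the most counted had 12 reads. The calls for LTBR and TNFRSF21 held under all 23 alternatives in the 3 comparisons. Leaving out 1 library moved the log2 value of TNFRSF21 against Sham to 2.26 at the lowest.

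TNFRSF9, a costimulatory receptor of activated T cells, was at 2.44, 1.37, 2.04 and 4.30 CPM in copper. SLA Ti held 0.230, 1.12, 0.206 and 0.381 CPM, Turned Ti 0.259, 1.28, 1.22 and 1.24 CPM and Sham 0.536, 1.61, 0.306 and 1.69 CPM. Copper lay above both titanium groups and overlapped with Sham. The difference was 2.33 ± 0.68 on the log2 scale against SLA Ti (edgeR adjusted p 0.01578). That call was lost without SLA Ti replicate 3 (1.92), SLA Ti replicate 4 (2.07) or Turned Cu replicate 4 (1.84), without Turned Cu replicates 2 and 4 (2.07) and without the 3 libraries high in ribosomal RNA (2.07), with adjusted p up to 0.0704. Against Sham it was 1.31 ± 0.66 (edgeR adjusted p 0.1209), and with the rabbit as a block 1.54 with an edgeR adjusted p of 0.04349. Adjusted p against Sham ran from 0.04349 to 0.3832 over the alternatives. Against Turned Ti the difference was 1.36 ± 0.65 and did not pass. TNFRSF25 (death receptor 3), the receptor for TNFSF15, did not pass in any copper comparison, with log2 differences of 0.19, -0.20 and -0.75.

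TNFRSF19 (TROY) is known in mouse from stem and mesenchymal progenitor cells. With all libraries and TMM scaling over all kept genes, it alone among the tested members was called lower. Copper replicates 1 and 2 held no read of it. The Sham libraries held 13.5, 12.0, 1.53 and 6.71 CPM, Turned Ti 0.485, 7.53, 13.3 and 9.04 CPM and SLA Ti 4.14, 4.64, 4.63 and 2.74 CPM. Copper replicates 3 and 4 had 1.15 and 0.861 CPM, so that copper lay below all Sham and SLA Ti libraries and overlapped only with Turned Ti replicate 1. The log2 fold change was -3.97 ± 0.96 against Sham, -3.83 ± 0.96 against Turned Ti and -2.92 ± 0.96 against SLA Ti (edgeR adjusted p 0.003073, 0.004231 and 0.02831). The call against SLA Ti was lost without Turned Cu replicate 1 (-2.64), without Turned Cu replicate 2 (-2.68) and without Turned Cu replicates 2 and 4 (-2.82), with adjusted p up to 0.1062 over all alternatives. In the same copper libraries all 6 tested fibroblast markers fell against Sham, beside 19.6% of all genes. Over 7 fibroblast genes the summed level was 486 to 2974 CPM against 10056 to 22267 CPM. Of 7 osteoblast markers 6 fell. Their part in the fall of TNFRSF19 was not tested.

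The 5 untested receptors had 12 to 74 reads each over the 16 libraries. TNFRSF11B (osteoprotegerin), the soluble decoy that binds RANKL and so limits osteoclast formation, had no read in any copper library. It had 16 reads over the Sham, 46 over the Turned Ti and 9 over the SLA Ti libraries. With the floor of 3 counts over the copper group it was at least 2.34-fold lower in Turned Cu than in Sham and at least 3.51-fold below Turned Ti, a bound of 1.81 without Turned Ti replicate 3. Against SLA Ti the reads gave no bound. A fit without the filter called it lower against Sham and against Turned Ti (edgeR adjusted p 0.03702 and 0.01385). RANKL itself, TNFSF11, did not pass against Sham, with a log2 difference of -1.23 ± 1.04 (edgeR adjusted p 0.3635). CD27, a receptor of lymphocytes that lies 46.3 kb from LTBR, had 69 reads in all and TNFRSF8 had 74. TNFRSF13B and TNFRSF17, receptors of B and plasma cells for TNFSF13, had 30 and 12 reads. None of the 12 reads of TNFRSF17 was in copper, and 8 were in Sham.

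Among the adaptors TRAF1 alone passed with all libraries and TMM scaling over all kept genes. It lacks the RING domain of the other TRAF proteins and its gene is a known target of NF-kappa-B. Copper libraries held 12.5, 3.51, 4.58 and 5.68 CPM against 1.97, 1.08, 2.82 and 3.30 CPM in Sham. Turned Ti held 1.33, 3.15, 1.33 and 0.912 CPM and SLA Ti 1.65, 1.81, 1.95 and 3.66 CPM. Every copper library exceeded Sham and Turned Ti, the lowest of them by little, and copper overlapped with SLA Ti. TRAF1 rose by 1.49 ± 0.47, 1.96 ± 0.48 and 1.55 ± 0.47 on the log2 scale against Sham, Turned Ti and SLA Ti (edgeR adjusted p 0.01699, 0.003497 and 0.01971). The call against Sham was lost without Turned Cu replicate 1 (0.79), Sham replicate 1 (1.28), Sham replicate 2 (1.27) or the 3 libraries high in ribosomal RNA (1.17). The call against SLA Ti was lost without Turned Cu replicate 1 (0.85), SLA Ti replicate 1 (1.42), SLA Ti replicate 2 (1.33) or SLA Ti replicate 3 (1.37). Adjusted p reached 0.1912 and 0.1878 in these comparisons. Against Turned Ti the value without Turned Cu replicate 1 was 1.27, and the call held.

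TRAF3, which in resting cells restrains the NFKB2 branch, was at 10.8, 7.81, 13.5 and 7.06 CPM in copper and 6.73, 7.00, 5.14 and 6.47 CPM in Sham. These groups did not overlap, but the log2 difference of 0.63 ± 0.31 did not pass (edgeR adjusted p 0.1048). Against Turned Ti it was 0.71 ± 0.30, which passed only without Turned Ti replicate 2 (0.93) or without Turned Cu replicates 2 and 4 (0.96). TRAF4, the TRAF protein with the weakest ties to TNF receptors, had 2.15, 3.12, 0.255 and 1.89 CPM in copper against 5.96, 2.29, 3.43 and 3.74 CPM in Sham. Its log2 difference was -1.10 ± 0.48 (edgeR adjusted p 0.07471), and 15 of 23 alternatives put it past the threshold, with adjusted p from 0.01225 to 0.1036. It was -1.28 with relative log expression scaling and -1.29 with DESeq2. Leaving out Turned Cu replicate 1 (-1.46) or 2 (-1.59), Sham replicate 3 (-1.37) or 4 (-1.32), Turned Ti replicate 1 (-1.30) or 4 (-1.31), or SLA Ti replicate 2, 3 or 4 (-1.30 each) gave the call. Against Turned Ti it passed without Turned Cu replicate 2 (-1.30).

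TRAF5 and TRAF6 did not pass with all libraries and TMM scaling over all kept genes. TRAF5, a partner of several costimulatory receptors, differed from Sham, Turned Ti and SLA Ti by 0.19, -0.11 and -0.01 on the log2 scale, with an SE of 0.30 each. TRAF6, which also serves interleukin 1 and Toll-like receptors, differed by -0.58, -0.71 and -0.18. Its difference from Sham passed without Sham replicate 4 (-0.93). The difference from Turned Ti passed without Sham replicate 1 or 4 (-0.87 each), SLA Ti replicate 3 or 4 (-0.87 each), Turned Cu replicate 4 (-0.95) or Turned Ti replicate 4 (-0.94), and with ribosomal RNA and mitochondrial genes left out of the scaling (-0.86). TRAF3 and TRAF6 overlap genes on the opposite strand, CDC42BPB over 35122 bases and PRR5L over 15966 bases. The kit keeps strand, but how the counting treated it has not been stated in the labels or headers. CDC42BPB fell by 1.45 and PRR5L fell by 1.86 on the log2 scale in copper against Sham.

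The make-up of the family's transcripts differed between sites. TPM, the deposited measure that is scaled to transcript length, allows genes to be compared within a library, and each member's share of the summed TPM of the 28 genes was taken. In Sham the leading members were LTBR with 22.8% ± 3.07, TNFRSF1A with 16.4% ± 1.98 and TNFRSF21 with 9.50% ± 1.55 (SD, n = 4). TNFRSF1B was sixth in Sham with 6.66% ± 2.2. In Turned Cu TNFRSF1B was first with 35.1% ± 5.75, before LTBR with 20.0% ± 2.02 and TNFRSF1A with 18.1% ± 1.71. Its range in copper, 27.2% to 39.5%, did not overlap with 5.35% to 9.96% in Sham or 4.36% to 9.48% in Turned Ti. In SLA Ti it averaged 22.7% ± 14.6, from 9.94% to 41.5%, and so covered the gap between Sham and copper. In Sham and Turned Ti the shares of LTBR exceeded those of every other member except TNFRSF21 in Turned Ti, which ranged from 7.64% to 25.7%.

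**Figure D3:**
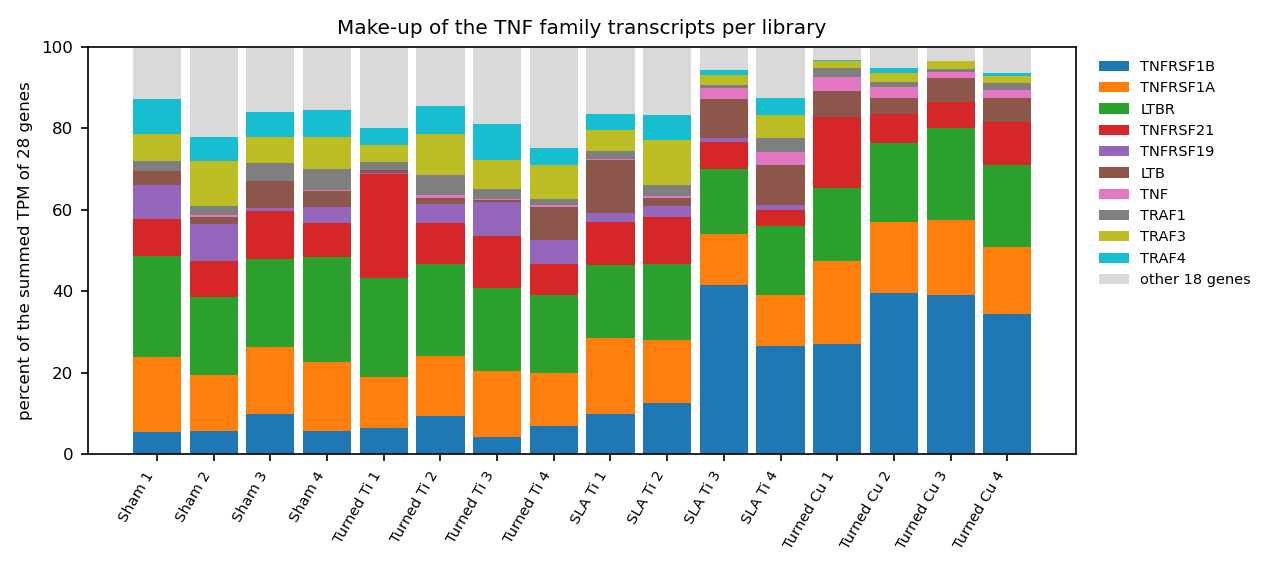
Share of each member in the summed TPM of the 28 TNF family genes, in percent, for each of the 16 libraries; bars stack to 100%. TNFRSF1B held 27.2% to 39.5% in the copper libraries and 5.35% to 9.96% in Sham, and from 9.94% to 41.5% in SLA Ti.

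The balance of the TNF receptors was taken as the TPM of TNFRSF1B over that of TNFRSF1A within a library, which does not depend on library scaling. The ratio was 0.290, 0.413, 0.604 and 0.334 in Sham and 1.34, 2.26, 2.15 and 2.12 in Turned Cu. It was 0.529, 0.651, 0.270 and 0.524 in Turned Ti and 0.535, 0.814, 3.30 and 2.13 in SLA Ti. TNFRSF1B was thus the less abundant receptor in every Sham and Turned Ti library and the more abundant one in every copper library, while SLA Ti was divided. The mean log2 ratio differed by 2.29 between Turned Cu and Sham and by 2.04 between Turned Cu and Turned Ti. Each had p = 0.02857 in a two-sided exact permutation test, the smallest p that 4 against 4 libraries can give, and 0.08571 after adjustment over the 6 comparisons, so that neither passed the adjusted threshold. SLA Ti exceeded Sham by 1.75 (exact permutation p = 0.05714, adjusted 0.08571). Leaving out 1 library at a time kept the difference between copper and Sham at 2.14 to 2.49 and that between SLA Ti and Sham at 1.31 to 2.18. The difference between copper and SLA Ti, 0.54, ranged from 0.11 to 0.98. The permutation did not pair libraries by rabbit, and the adjustment covered this ratio alone. Among other ratios taken, TRAF1 over TRAF3 was 0.433 to 1.48 in copper and 0.194 to 0.702 in Sham. TNFRSF21 over TNFRSF1A was 0.353 to 0.858 in copper and 0.486 to 0.716 in Sham. Copper and Sham overlapped in both.

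**Figure D4:**
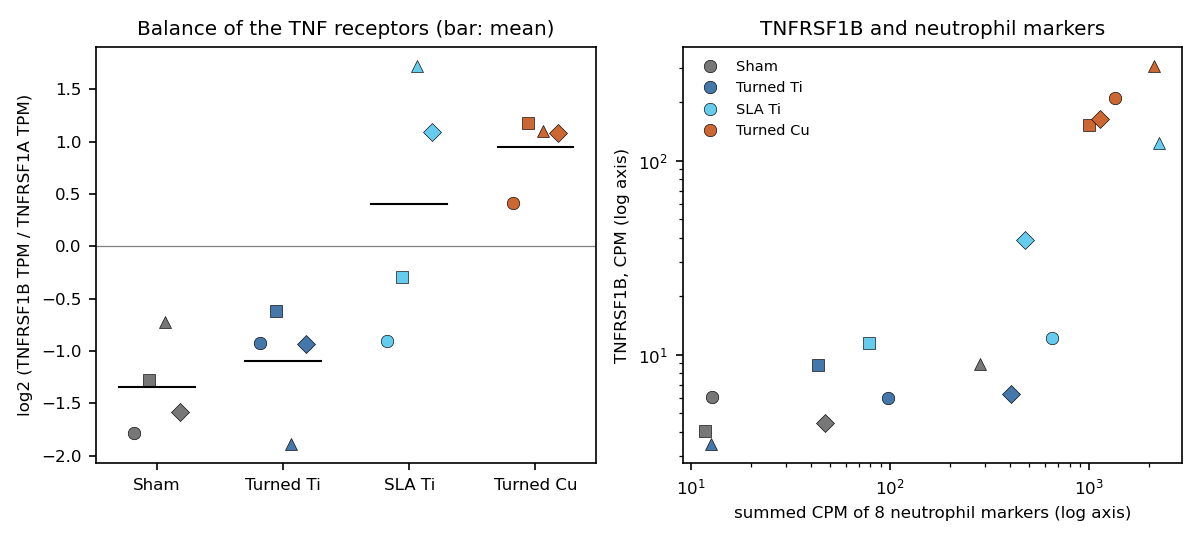
Left, log2 ratio of TNFRSF1B to TNFRSF1A (TPM) in each library, with the group mean as a bar and 0 as equal abundance. Right, TNFRSF1B (CPM, log axis) against the summed CPM of 8 neutrophil markers (log axis). Symbols mark rabbits as in the plot of levels by library (circle 1, square 2, triangle 3, diamond 4). SLA Ti replicate 3 (2255 CPM of markers, 123 CPM of TNFRSF1B) lies beside the copper libraries. SLA Ti replicate 1 held 651 CPM of markers with 12.2 CPM of TNFRSF1B, near the 11.5 CPM of SLA Ti replicate 2, which had 78.9 CPM of markers.

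Some leukocyte markers were also higher in copper, and shares of markers are to be read against 23.2% of all genes higher and 19.6% lower in copper against Sham. Of 8 tested neutrophil markers 6 rose in copper against Sham, among them CSF3R (5.72 ± 1.26, log2) and CXCR1 (4.86 ± 1.31). Their summed level was 995 to 2131 CPM in Turned Cu, 11.8 to 285 CPM in Sham and 12.7 to 405 CPM in Turned Ti. Against SLA Ti no neutrophil marker rose and 2 of 8 fell (15.3% of all genes higher, 15.7% lower). The summed level in the SLA Ti libraries ran from 78.9 to 2255 CPM. TNFRSF1B, TNFRSF1A and LTBR were higher in copper than in SLA Ti, and the call for TNFRSF1B was lost in 4 of 23 alternatives. Of 10 tested monocyte and macrophage markers 4 rose against Sham, CD68 by 3.96 ± 0.61 and CD14 by 3.45 ± 0.54, the list's median log2 fold change was 0.26, and it summed to 670 to 1093 CPM in copper against 124 to 194 CPM in Sham. Against Turned Ti 5 neutrophil markers rose and 2 fell, beside 21.1% and 19.6% of all genes. Of 10 monocyte and macrophage markers 3 rose there, with a median of -0.32. Against SLA Ti 3 of the latter rose and 3 fell. Scaled by nuclear protein-coding counts, 3 neutrophil markers rose and 1 fell against Sham, and 3 monocyte and macrophage markers rose and 3 fell. With that scaling 14% of all genes were higher and 36.4% lower. No neutrophil or macrophage marker found in the table was at 0 in either group. Among the other lists, dendritic cell genes had 2 of 4 higher, T and NK cell genes 1 of 4 higher, B cell genes 1 of 5 lower, and plasma cell and osteoclast genes none of 5 and none of 4. Endothelial genes split, with 2 of 8 higher and 5 lower. The part of these markers in the members' differences was not tested.

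Without copper, no member passed the adjusted threshold, and neither did any other gene: 0% of the 11617 genes passed in the comparisons among Sham, Turned Ti and SLA Ti. Groups did not overlap in 0 of 17 members between Turned Ti and Sham (1.14% of all genes), in 1 between SLA Ti and Sham (7.7%) and in 2 between SLA Ti and Turned Ti (2.45%). At an unadjusted p under 0.05, 1 member differed between Turned Ti and Sham, 3 between SLA Ti and Sham and 4 between SLA Ti and Turned Ti, by edgeR. Of all genes 2.5%, 14.3% and 9.02% did so. DESeq2 called 0, 2 and 2 members, the latter TNF and TNFRSF1B each time, beside 0%, 3.04% and 0.904% of all genes. SLA Ti exceeded Sham in TNFRSF1B by 2.98 ± 0.63 on the log2 scale (edgeR p 0.0001997, adjusted 0.1039), without overlap between the groups, which held for 4.05% of all genes in that direction and 3.65% in the other. TNF differed by 4.26 ± 1.04 (edgeR p 0.0007632, adjusted 0.1039) and was higher in SLA Ti in 4 of 4 rabbits. Adjusted p for TNF ran from 0.001944 to 0.4026 over the alternatives and for TNFRSF1B from 0.000417 to 0.4026. Both passed with edgeR when SLA Ti replicate 1 was left out (4.65 and 3.30) or SLA Ti replicate 2 (4.64 and 3.32), settings in which 32 and 198 of all genes passed. Without SLA Ti replicate 3 the differences were 1.82 for TNFRSF1B and 3.27 for TNF.

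LTB showed the same order, with SLA Ti above Sham by 2.01 ± 0.81 (edgeR p 0.02442, adjusted 0.2569) and above Turned Ti by 2.80 ± 0.86 (edgeR p 0.004453, adjusted 0.3154), or by 4.43 without Turned Ti replicate 4. TNFRSF1B was also higher in SLA Ti than in Turned Ti, by 2.92 ± 0.63 (edgeR p 0.0002337, adjusted 0.2337), without overlap. Without SLA Ti replicate 2 that difference was 3.26 and passed with an edgeR adjusted p of 0.0441, as did 36 genes in all. Without SLA Ti replicate 3 it was 1.76, with an edgeR adjusted p of 0.8112. TNF differed by 3.16 ± 0.91 (edgeR p 0.002763, adjusted 0.2774). TNFRSF1A, at 0.89 ± 0.34 (edgeR p 0.0188, adjusted 0.436), did not overlap between SLA Ti and Turned Ti, as held for 1.12% of all genes in that direction. The member with an unadjusted p under 0.05 between Turned Ti and Sham was TNFSF13, at 1.09 ± 0.50 (edgeR p 0.04194, adjusted 1).

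Within copper the position of the site and the mitochondrial share of a library went together. In 8 of the 17 tested members both distal copper libraries (rabbits 1 and 3) lay above both proximal ones (rabbits 2 and 4), and in 1 they lay below. Of all genes 23.7% and 28.4% were so ordered. The 8 were TNF, LTB, TNFSF13, LTBR, TNFRSF1A, TNFRSF1B, TNFRSF25 and TRAF3, and the 1 was TRAF6. TNFRSF1A for instance was at 119 and 108 CPM in the distal and 50.9 and 58.2 CPM in the proximal copper libraries. With 2 libraries against 2 this is a description, and position, rabbit and mitochondrial share cannot be told apart. Without the proximal copper libraries 9 members passed against Sham, 8 of them also called with all libraries: TNFSF14 was lost and TRAF4 gained. Against Turned Ti 9 passed, the 8 called before and TRAF3, and against SLA Ti 5 passed. Of all genes 20.8%, 19.4% and 12.1% were then higher against Sham, Turned Ti and SLA Ti, and 24%, 23.6% and 16.8% lower.

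The genes that act with the family were counted over lists of known pathway members, whose choice was made with earlier results of these data known. Of 10 tested receptor-proximal adaptors and death-branch genes 6 rose and 1 fell in copper against Sham, beside 23.2% and 19.6% of all genes. RIPK1, the kinase that joins the TNFRSF1A complex, rose by 2.06 ± 0.29, CASP10, an initiator caspase, by 3.99 ± 0.68, and CFLAR, which restrains CASP8, by 2.80 ± 0.51 on the log2 scale. Of 13 ubiquitin and kinase genes leading to NF-kappa-B 8 rose and 1 fell. REL rose by 2.87 ± 0.39, NFKB2 by 2.82 ± 0.40, IKBKG, the regulatory subunit of the kinase complex, by 2.24 ± 0.36 and NFKB1 by 1.84 ± 0.34. The median log2 fold change was 1.48 in the former list and 1.67 in the latter, against -0.06 over all genes. Against SLA Ti 4 of 10 rose and 1 fell in the former, and 5 of 13 rose and 1 fell in the latter. The medians there were 0.83 and 0.47, and 15.3% of all genes were higher and 15.7% lower.

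Feedback inhibitors were the list with the most members past the test. Of 14 tested 11 rose against Sham, 11 against Turned Ti and 7 against SLA Ti, and none fell, with medians of 2.17, 2.13 and 1.07. Of all genes 23.2%, 21.1% and 15.3% were higher in these comparisons. ZFP36, which destabilizes TNF mRNA, was at 12.9, 5.25, 13.2 and 8.97 CPM in Sham and 918, 624, 658 and 609 CPM in copper. It was at 298 CPM in SLA Ti replicate 3 and at 10.2 to 40.6 CPM in the other SLA Ti libraries. ZFP36 rose by 6.11 ± 0.91 against Sham (edgeR adjusted p 7.16e-05). NFKBIZ rose by 3.79 ± 0.57, NFKBIE by 2.59 ± 0.38 and N4BP1 by 1.85 ± 0.29.

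The sheddase list holds genes that act in the release of TNF and its receptors from the membrane. Of 6 tested, 3 rose and 2 fell in each copper comparison. Of all genes 23.2%, 21.1% and 15.3% were higher against Sham, Turned Ti and SLA Ti, and 19.6%, 19.6% and 15.7% lower. The list mixes proteases with carriers, so that its counts give no direction of release. ADAM17, the protease that frees TNF, was at 9.83, 10.2, 9.00 and 8.28 CPM in Sham and 88.4, 47.2, 58.8 and 35.6 CPM in copper, a rise of 2.63 ± 0.40 (edgeR adjusted p 7.82e-05). RHBDF2, the carrier that brings ADAM17 to the surface in immune cells, rose by 3.58 ± 0.43 (edgeR adjusted p 1.98e-05). Its homologue RHBDF1 fell by 1.50 ± 0.43. SPPL2A, a protease that cuts the remaining membrane stub of TNF, rose by 1.97 ± 0.41.

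Genes that TNF induces in many cells did not move one way. Of 11 tested 4 rose, 1 fell and 6 did not pass against Sham, where 23.2% of all genes were higher and 19.6% lower. TNFAIP2 rose by 2.00 ± 0.33, IER3 by 4.91 ± 0.88 and ICAM1, an adhesion molecule of endothelium and leukocytes, by 1.82 ± 0.33. VCAM1, an adhesion molecule of endothelium and marrow stroma, fell by 4.79 ± 0.96 and also fell against Turned Ti (-3.85) and SLA Ti (-5.23). The summed level of this list, 253 to 321 CPM in copper, lay within the 74.7 to 396 CPM of Sham. Against Turned Ti 5 rose and 1 fell (21.1% and 19.6% of all genes), and against SLA Ti 3 rose and 1 fell (15.3% and 15.7%). Scaled by nuclear protein-coding counts, this list had 4 higher and 4 lower against Sham, where 14% of all genes were higher and 36.4% lower. The feedback inhibitors then had 9 of 14 higher and none lower, the receptor-proximal list 5 higher and 3 lower, the NF-kappa-B list 6 and 3, and the sheddases 3 and 2. Against SLA Ti that scaling left 4 of 14 feedback inhibitors higher and 1 lower (7.1% and 30.4% of all genes). The receptor-proximal list then had 1 of 10 higher and 1 lower there, and the NF-kappa-B list 2 of 13 higher and 2 lower. No gene of the 6 lists passed in the comparisons without copper.

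**Figure D5:**
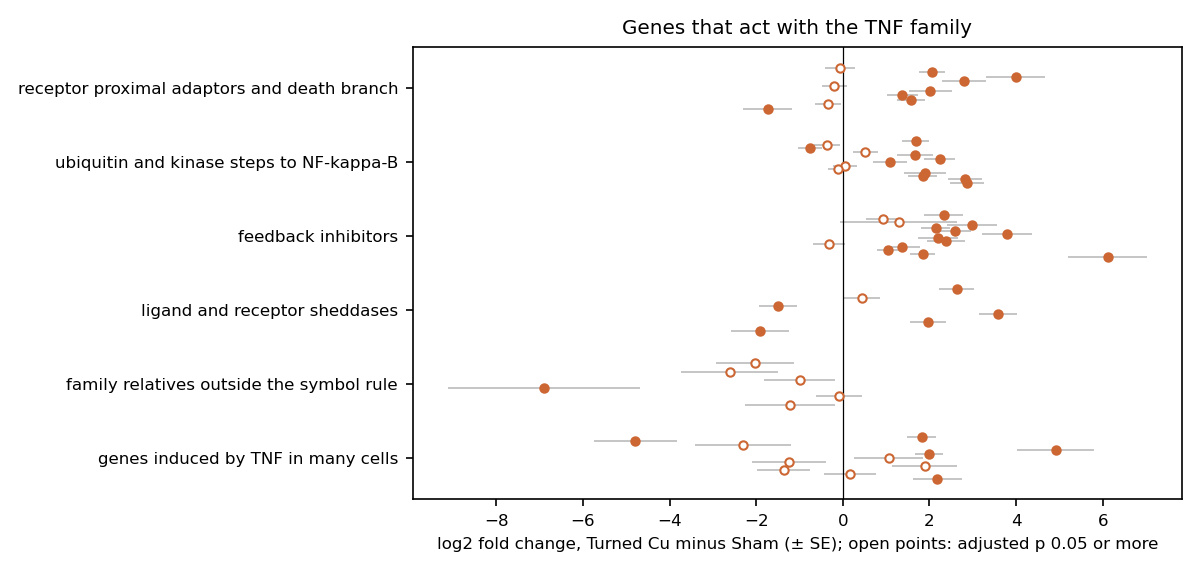
Log2 fold change (± SE) in Turned Cu against Sham of the tested genes in 6 lists of TNF pathway genes; filled points passed the adjusted threshold. All 11 feedback inhibitors that passed lie to the right of 0, and the lowest point, NGFR, had no read in copper, so that its plotted value depends on the fit's prior count.

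Of 6 tested relatives that the symbol rule does not reach, 1 fell against Sham, 5 did not pass and none rose. NGFR, the nerve growth factor receptor of the same family, had no read in copper and was at least 7.34-fold lower than in Sham. TNFSF13B (BAFF), a B cell survival factor that the table lists as TNLG7A, was found by its older name after values had been seen. It was at 0.894, 1.48, 2.88 and 0.643 CPM in Sham and 4.31, 5.27, 3.31 and 7.23 CPM in copper, without overlap. It rose by 1.77 ± 0.47 against Sham (edgeR adjusted p 0.005587), 1.49 ± 0.46 against Turned Ti (edgeR adjusted p 0.01487) and 1.25 ± 0.45 against SLA Ti (edgeR adjusted p 0.04492). Copper overlapped with SLA Ti. Scaled by nuclear protein-coding counts, TNFSF13B did not pass in any of the 3 comparisons. It was then higher by 1.10, 0.89 and 0.73 against Sham, Turned Ti and SLA Ti (edgeR adjusted p 0.06091, 0.1195 and 0.2198). TNFSF10 (TRAIL, listed as TNLG6A), likewise looked up afterwards, differed from Sham by 0.02 ± 0.35, and TNFRSF12A (listed without a symbol), the receptor of TNFSF12, by 0.92 ± 0.74, neither past the test.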

How the data were processed

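Per the labels' protocols, tissue was scraped from the drilled holes, RNA was extracted with TRIzol, and stranded total RNA libraries were read in pairs on an Illumina instrument. The submitters' processing notes name STAR 2.7.1a and Cufflinks 2.2.1. How counts were made and the genome build are not given in the sources used here. The deposited gene table holds read counts taken as estimated counts, since 192 values have a count of 0 with a TPM above 0, and TPM by the authors, per the file headers. Its 16 RPKM columns were not used.

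Counts, whole numbers after rounding, were tested with edgeR 4.0.16 in R 4.3.3. filterByExpr (minimum count 10) kept 11617 genes, and libraries were scaled by TMM over them. The quasi-likelihood fit took all 16 libraries and the 4 group means (common dispersion 0.206; two-sided F test), with Benjamini-Hochberg adjustment over all kept genes and a threshold of 0.05. The SE was obtained by dividing the size of the log2 fold change by the root of its F statistic. Levels are CPM of the scaled library size, and bounds use a floor of 3 counts over a group. Floors cover counting error only, and bounds were taken with TMM scaling alone, so that another scaling could give other bounds. No pair of libraries was identical. The fit was run on simulated data in which few genes differed, equally up and down. Such data cannot show whether TMM scaling suits these libraries, where much of the transcriptome differed.

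Replicate numbers pair the groups because same-numbered libraries come from the same rabbit. Deviations of paired libraries from their group means correlated between -0.167 and 0.316. Blocked fits, DESeq2 1.42.0, RLE scaling, scaling without ribosomal RNA and mitochondrial genes, no filter, and leaving out libraries were tried, 23 alternatives in all. Of these, leaving out Turned Cu 2 and 4, or the 3 libraries high in ribosomal RNA, was chosen after seeing the data. So were a further fit with library size taken as nuclear protein-coding counts and the comparison of group overlap in TPM and in those counts. Any member may be named, and of each list up to 4 genes of smallest p in Turned Cu against Sham. Members and lists were chosen with earlier results of these data known. CDC42BPB and PRR5L are named as overlapping genes.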

Additional observations from a re-analysis of the deposited data

Results flagged for a closer look

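In 5 of the 68 groups of 4 libraries examined (17 members in 4 groups), 1 library stood far from the other 3 by Dixon's test, where chance alone gives about 1 in 20. LTB was at 2.65 CPM in Turned Ti replicate 4, against 0.108 to 0.492 CPM in the other Turned Ti libraries. TNFSF14 was at 3.63 CPM in Sham replicate 2, against 0.0804 to 0.612 CPM. TNF was at 20.5 CPM in Turned Cu replicate 1, against 7.40 to 9.29 CPM in the other copper libraries. TNFRSF9 was at 0.259 CPM in Turned Ti replicate 1, below 1.22 to 1.28 CPM. TRAF1 was at 3.66 CPM in SLA Ti replicate 4, above 1.65 to 1.95 CPM. The flagged libraries of LTB, TNFSF14 and TRAF1 are the 3 high in ribosomal RNA, whose part in these values was not tested.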

How the results depend on the processing

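Among the 17 tested members, the number past the threshold stayed at 7 to 10 in Turned Cu against Sham and at 8 to 10 against Turned Ti over 23 alternatives. Over these settings 13.5% to 22.8% of all genes were higher and 13.5% to 25.6% lower against Sham. Against Turned Ti the shares were 13.7% to 20.9% and 14% to 24.9%. Against SLA Ti the number of members was 8 and ran from 5 to 8 when 1 library was left out. It was 5 without Turned Cu 2 and 4 and 5 without the 3 libraries high in ribosomal RNA. Of all genes 7.68% to 16% were higher and 10.9% to 20.2% lower there over the 23 alternatives. In SLA Ti against Sham 0 members passed, 2 without the filter, 2 with DESeq2 (5 members without an adjusted p) and 0 to 2 with 1 library left out. Of all genes 0.894% were higher and 0.0235% lower without the filter, and 2.89% and 0.146% with DESeq2. In SLA Ti against Turned Ti 0 members passed, 1 without the filter, 2 with DESeq2 and 0 to 1 with 1 library left out. Of all genes 0.353% were higher and 0.0565% lower without the filter, and 0.869% and 0.0344% with DESeq2. What moved the member counts between settings was not tested. The replicate block (rabbit) gave counts of 9, 8 and 8 in the 3 copper comparisons; it ended the call of TNFSF14 against Sham (2.49), gave that of TNFRSF9 (1.54) and changed no other call. Directions changed only for differences that did not pass. TNFRSF25 in Turned Cu against Sham was -0.0366 without the filter and -0.0521 without the libraries high in ribosomal RNA, and -0.55 to 0.3983 with 1 library left out. Against Turned Ti it was 0.33 without Turned Cu 2 and 4, 0.32 without the libraries high in ribosomal RNA, and -0.94 to 0.31 with 1 left out. TRAF5 against Sham was -0.0599 without the filter and -0.0113 without the libraries high in ribosomal RNA, and -0.17 to 0.2332 with 1 left out. Without Turned Cu 2 and 4, TRAF5 was 0.0318 against Turned Ti and 0.11 against SLA Ti (-0.37 to 0.0279 with 1 left out), and TNFSF13 against Sham was 0.33 (-0.79 to 0.0795 with 1 left out). RLE scaling moved the median of all genes against Sham from -0.06 to -0.21. Scaling by nuclear protein-coding counts put 10, 11 and 7 members past the threshold in the 3 copper comparisons. Of all genes it called 14%, 12.7% and 7.1% higher and 36.4%, 36.6% and 30.4% lower. It reversed TNFRSF25 (-0.5799), TRAF3 (-0.0889) and TRAF5 (-0.5041) against Sham and TRAF3 (-0.2027) against SLA Ti. Of 9, 8 and 7 members higher without overlap against Sham, Turned Ti and SLA Ti in scaled CPM, 2, 2 and 0 were so in the deposited TPM and 6, 5 and 5 per nuclear protein-coding count. Of all genes 21.8%, 19% and 13.4% were so in scaled CPM and 5.29%, 2.4% and 0.448% in TPM. Per nuclear protein-coding count the shares were 13.9%, 11.2% and 6.49%. The filter left out 11 of the 28 members for low counts.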
